A study of Mus musculus with 30 samples.

Results

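The genes of the motile cilium axoneme were followed through lung organoid cultures of mouse Epcam+ epithelial cells and CCL206 fibroblasts, a mouse lung fibroblast line that had been stopped from proliferating. Members were chosen by symbol: Dnah, Dnai, Dnaaf, Cfap, Rsph and Tekt followed by a number, together with Foxj1, Mcidas and Ccno. Of 55487 listed genes, 70 were members: 33 Cfap, 16 Dnah, 8 Rsph, 5 Dnaaf and 5 Tekt genes and the 3 regulators. No symbol of the Dnai form was listed. The 16 Dnah members include Dnah2os, which the rule matched by its symbol. That symbol marks an opposite-strand transcript of Dnah2 and not a heavy chain, and it had 11 reads over the 30 libraries.

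Lung cells sorted as CD45-, CD31- and Epcam+ from 4 mice of WT genotype were cultured with the fibroblasts for 72 h with vehicle, EC, IPFc or TGF-β at 2 ng/ml. EC is a cocktail modelled on a COPD exacerbation, of TNFα, IL-1β, IL-6 and a neutrophil chemokine, which the labels give as IL-8 and the methods as its counterpart KC for mouse cells. IPFc is a cocktail modelled on idiopathic pulmonary fibrosis and holds the type 2 cytokines IL-4 and IL-13, the alarmins IL-33 and TSLP, the inflammatory factors TNFα, IL-1β, IL-8 and CCL2, and TGF-β itself. Each culture was then separated with Epcam microbeads into an epithelial fraction (Epcam+) and a fibroblast fraction (Epcam-), and both were sequenced as bulk RNA. There were 4 epithelial libraries each of vehicle, EC and IPFc, and 3 of TGF-β. There were 3 fibroblast libraries of vehicle and 4 each of EC, IPFc and TGF-β. The fibroblasts were 1 line in every culture, so a mouse number names the source of the epithelial cells. Libraries held 5113828 to 20317181 counted reads, the fewest in the fibroblast EC library of mouse 1, which stood apart. Levels are given in CPM, the reads of a gene scaled to the counted reads of its library. Differences are log2 fold changes from edgeR with the mouse as a block, each with its SE, and a gene was called where its p, adjusted over all tested genes, was under 0.05.

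Motile cilia are built by multiciliated airway cells. Mcidas, which acts with E2F factors, and Ccno, which is needed for making many centrioles, act early in the program. Foxj1 is the transcription factor that, with RFX factors, turns on the genes of the motile axoneme. Dnah genes encode the dynein heavy chains that drive the beat, Dnaaf genes encode factors that assemble dynein arms in the cytoplasm, Rsph genes encode radial spoke proteins, Tekt genes encode filaments along the microtubule doublets, and Cfap genes encode a mixed group of cilia and flagella proteins.

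RFX factors bind promoters of many ciliary genes, so the RefSeq promoters (GRCm38.p6) were searched for the RFX-type motif GTTGCCA on both strands, over the 250 bases before the 1 transcript start that the table gives for each gene. For Mcidas, Cfap44, Dnah7b, Dnaaf2 and Tekt1 that start lies inside the widest annotated span of the gene, so their windows overlap the gene itself. Of the 70 members, 56 had a promoter in the table. The motif was present in 13 of these (23.2%), against 1133 of 27025 genes in all (4.19%). The forkhead-type motif TGTTTAC was present in 4 of the 56 members (7.14%) and in 3.54% of all genes. A match is a description of the letters and not a binding site. Foxj1 had no promoter in the table. The 9 sites below belong to the 8 genes described in the results that carry the RFX-type motif. Each is read 5′ to 3′ on the strand given, with the motif in capitals and 10 bases on either side.

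Mcidas (chr13:112993663-112993689, plus strand): gggaagccagGTTGCCAggttggttaa
Ccno (chr13:112987573-112987599, plus strand): ccgggctgcgGTTGCCAcggtgacgac
Tekt1 (chr11:72361881-72361907, minus strand): cgtccgtccgGTTGCCAtagagaccgc
Cfap44 (chr16:44394769-44394795, minus strand): gtttactgcgGTTGCCAtagcaacgtc
Cfap44, second site (chr16:44394659-44394685, minus strand): aaactgaggtGTTGCCAcagagtcgtc
Cfap298 (chr16:90934894-90934920, plus strand): ggaagtggctGTTGCCAggggcaacag
Dnah7b (chr1:46066680-46066706, plus strand): caggagcacaGTTGCCAcccaccctta
Cfap20 (chr8:95434948-95434974, plus strand): gcggaacttgGTTGCCAagggactatt
Dnaaf2 (chr12:69198423-69198449, plus strand): cgcgtgctttGTTGCCAtagtaacgcc

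The nearest of these motifs begins 10 bases before the start used in the table, in Dnaaf2, and the farthest begins 219 bases before it, in Ccno. Ccno and Mcidas are neighbours on chromosome 13, with 2803 bases between the end of Ccno and the start of the full Mcidas span in RefSeq. The whole window before Ccno (chr13:112987552-112987801, plus strand) lies outside the annotated gene and is shown because Ccno fell with both IPFc and TGF-β in the epithelial fraction.

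Ccno: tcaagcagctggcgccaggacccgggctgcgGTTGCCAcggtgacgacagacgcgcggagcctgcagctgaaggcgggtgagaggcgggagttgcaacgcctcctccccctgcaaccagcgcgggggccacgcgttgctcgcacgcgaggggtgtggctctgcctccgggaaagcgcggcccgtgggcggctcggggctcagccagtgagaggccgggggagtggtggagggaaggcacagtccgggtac

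Most members were low in these cultures. In the epithelial vehicle libraries 32 of 70 members averaged at least 1 CPM and 9 at least 10 CPM, and 1 member, Cfap97d1, had no read in any of the 30 libraries. Tekt3 had 1 read in all. On a per-length scale (RPKM, with merged exon lengths of GENCODE vM39), the highest members in the epithelial vehicle libraries were Dnaaf5 at 16.6, Cfap298 at 14.9, Cfap20 at 7.61 and Foxj1 at 7.57 RPKM. The dynein heavy chain with the highest level on the same scale, Dnah6, was at 0.111 RPKM.

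A group of 8 members was expressed at 10 CPM or more also in the fibroblast TGF-β libraries, where epithelial transcripts were fewest: Cfap20, Cfap36, Cfap97, Cfap298, Cfap410, Dnaaf5, Rsph3a and Rsph3b. This group was set after the values were seen. Just inside the threshold were Cfap298 (mean 12.4 CPM) and Rsph3b (11.2 CPM), and just outside were Cfap69 (4.38 CPM) and Cfap300 (2.90 CPM). Rsph3a and Rsph3b are near-identical copies, as are Dnah7a, Dnah7b and Dnah7c, and reads may be split between them.

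**Figure D1:**
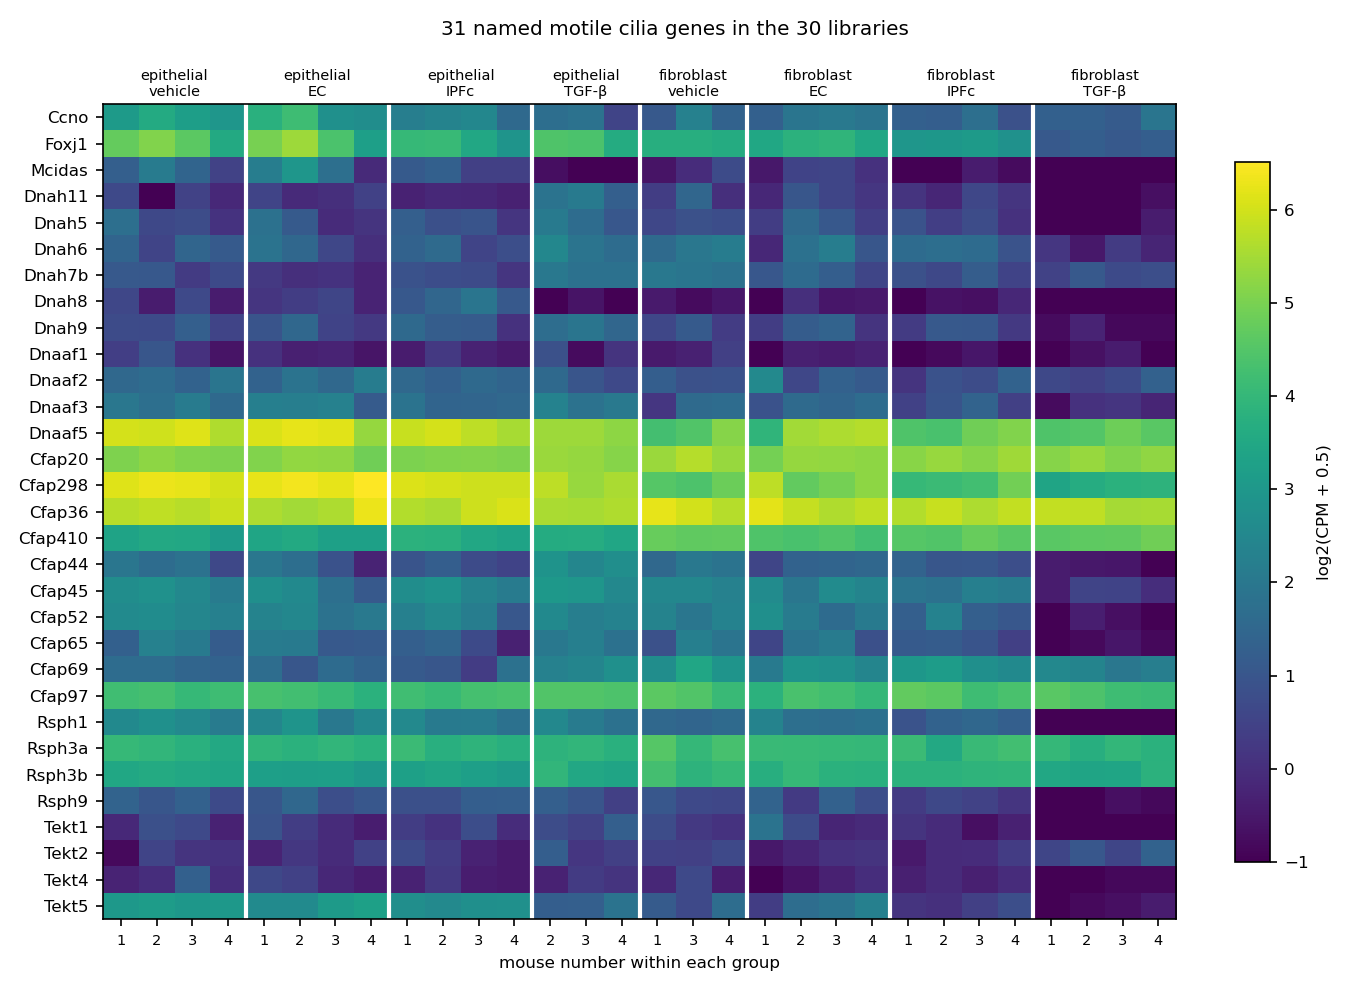
Levels of the 31 named members (rows) in each of the 30 libraries (columns, numbered by mouse within each fraction and treatment), as log2(CPM + 0.5). The broadly expressed members, such as Dnaaf5, Cfap298 and Cfap36, are bright in every library, and most other members go dark in the 4 fibroblast TGF-β libraries. The broadly expressed members were chosen by their level in those 4 libraries.

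With EC in the epithelial fraction no member was called. Of 63 tested members 0 were called by edgeR and 0 by DESeq2, with 5 at an unadjusted p under 0.05, while 4.67% of all tested genes were called. Foxj1 had 26.1, 33.5, 24.0 and 11.3 CPM in the vehicle libraries of mice 1 to 4 and 31.3, 42.4, 20.5 and 8.91 CPM in the EC libraries. The values overlapped, and the mice differed more than the treatments. The log2 fold change was 0.06 ± 0.13 (SE, adjusted p = 0.915). Mcidas had 1.91, 3.85, 2.17 and 0.887 CPM with vehicle and 4.09, 7.20, 2.86 and 0.432 CPM with EC. It was higher with EC in mice 1 to 3 and lower in mouse 4, and without mouse 4 it was called by edgeR (log2 fold change 0.80, adjusted p = 0.0332).

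The libraries of mouse 4 were low in these genes throughout the epithelial fraction. Among the 32 members with a mean of at least 1 CPM in the vehicle libraries, mouse 4 had the lowest value in 24. The same mouse was lowest in 16 of 30 such members with EC, in 19 of 32 with IPFc and in 23 of 41 with TGF-β. Its summed basal cell markers were also the lowest, at 32.0 CPM with vehicle against a group median of 612.9. Basal cells are airway stem cells. Whether the makeup of the isolated cells bears on the levels was not tested. In bulk libraries, fewer cells of a type and less RNA per cell cannot be told apart.

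IPFc lowered Foxj1 and Ccno in the epithelial fraction. Of 62 tested members 1 was called higher and 3 lower (6.45%), beside 5.94% of all tested genes in either direction, a share near the background. Foxj1 fell to 16.0, 16.4, 10.9 and 6.91 CPM in mice 1 to 4. The groups overlapped through the vehicle library of mouse 4, and Foxj1 was lower with IPFc in 4 of 4 mice (log2 fold change -0.91 ± 0.13, adjusted p = 1.85e-05). Without the mouse as a block the same difference was not called (adjusted p = 0.2). Among markers of other epithelial types, 7 of 10 AT1, 4 of 10 club, 4 of 8 basal and 3 of 10 AT2 cell markers were called lower. Higher were 1 marker each of club, basal and AT2 cells and 4 of 8 goblet cell markers. Of 15 epithelial reference genes 2 were lower, and 8 of 13 tested fibroblast reference genes were higher. The part of these cell types in the fall of Foxj1 and Ccno was not tested.

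Ccno had 8.12, 11.7, 8.71 and 7.26 CPM with vehicle and 4.15, 4.61, 5.04 and 2.49 CPM with IPFc. The groups did not overlap, and the log2 fold change was -1.15 ± 0.19 (adjusted p = 0.000137). Mcidas averaged 2.20 ± 1.23 CPM with vehicle and 1.34 ± 0.58 CPM with IPFc (SD, n = 4 each) and was not called. Among the 18 other regulators of multiciliogenesis, Deup1, a deuterosome protein for centriole amplification, was the 1 gene called, at 1.13 CPM against 2.89 CPM (log2 fold change -1.31 ± 0.37, adjusted p = 0.0267).

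Among the axoneme members, Cfap65 was called lower with IPFc (log2 fold change -1.19 ± 0.35, adjusted p = 0.0357), but 5 of 9 alternative settings lost the call. Dnah8, a dynein heavy chain best known from sperm flagella, went the other way: it had 1.02, 0.240, 1.08 and 0.242 CPM with vehicle and 1.60, 2.27, 3.29 and 1.63 CPM with IPFc. Every IPFc library lay above every vehicle library, and the log2 fold change was 1.81 ± 0.43 (adjusted p = 0.00793). The median log2 fold change of the tested members was -0.23, beside 0.00 for all genes. Of 67 other axoneme and motile cilia genes 63 were tested, and 1 rose and 4 fell, beside 5.94% of all genes in either direction. Pifo rose to 8.74 from 3.62 CPM, and Lrrc23, a radial spoke protein, fell to 0.848 from 3.03 CPM (adjusted p = 0.000863 by edgeR).

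Against EC, 3 of these genes were called again: Foxj1 (log2 fold change -0.97 ± 0.15, adjusted p = 0.000493) and Ccno (-1.34 ± 0.23, adjusted p = 0.00155) were lower and Dnah8 (1.64 ± 0.38, adjusted p = 0.0171) was higher. These were 3 of 63 tested members (4.76%), beside 3.54% of all genes. The IPFc libraries are shared between the comparisons, so the calls are not independent, and without the mouse as a block 0 of the 3 were called.

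**Figure D2:**
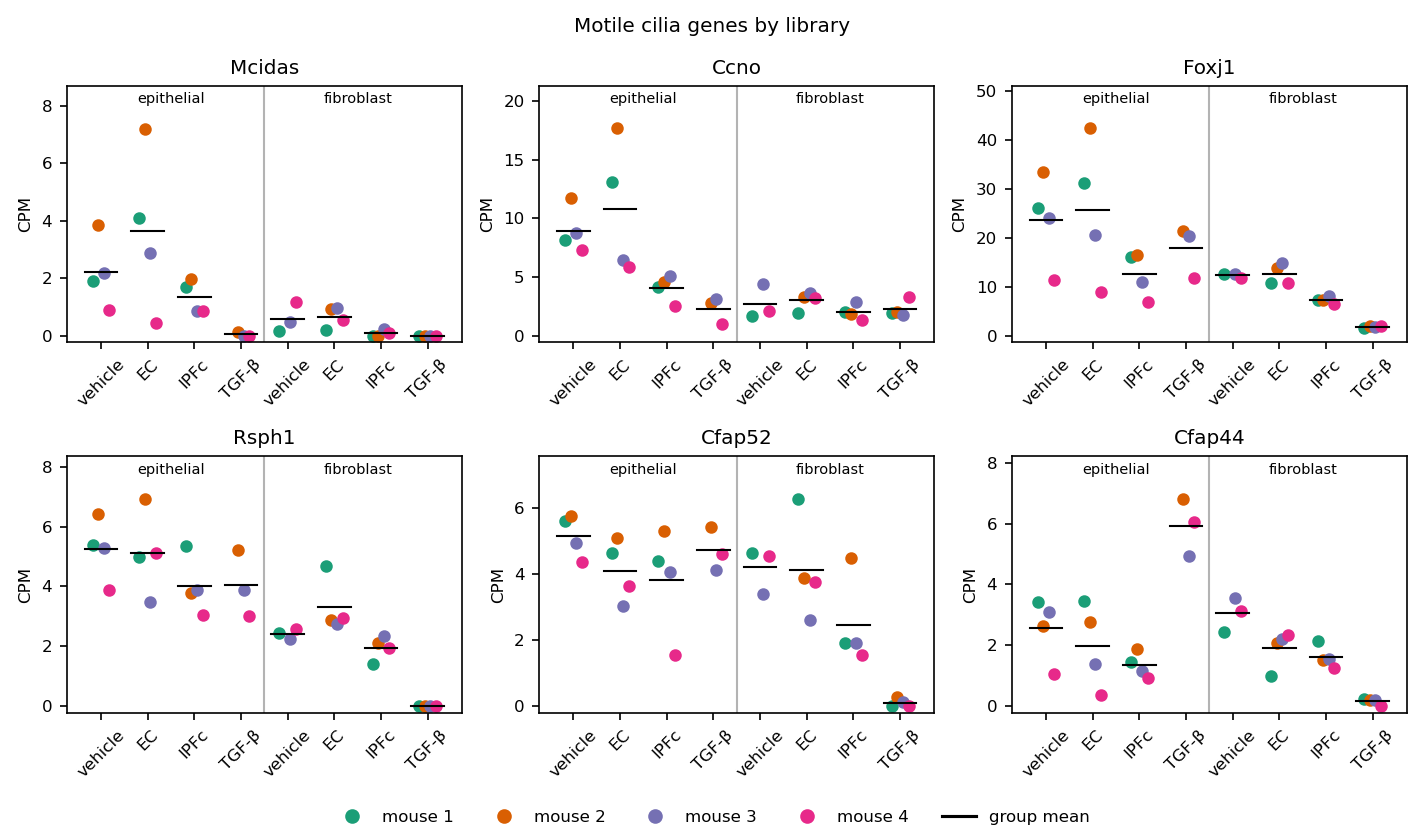
CPM of the early regulators Mcidas and Ccno, of Foxj1, and of Rsph1, Cfap52 and Cfap44 in every library, coloured by mouse, with the mean of each group as a bar. Mcidas falls to near 0 in the epithelial TGF-β libraries while Foxj1 stays between 11.8 and 21.4 CPM, and Rsph1 has no read in the 4 fibroblast TGF-β libraries.

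With TGF-β in the epithelial fraction the early regulators fell, while several dynein heavy chain and Cfap genes rose. Of 64 tested members 8 were called higher (12.5%) and 8 lower (12.5%), beside 21.2% of all genes higher and 20.5% lower, so both shares lay under the background. The vehicle library of mouse 1 has no TGF-β partner and adds nothing to the contrast.

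All 3 regulators were lower. Mcidas had 0.887 to 3.85 CPM with vehicle and 0.106, 0 and 0 CPM with TGF-β in mice 2, 3 and 4, which is 2 reads in 3 libraries against 131 reads in 4. The ratio of the read rates was 43.2-fold lower (exact 95% counting interval 11.7 to 360.2), and the gene was called by edgeR with an adjusted p of 1.98e-09. Ccno fell to 2.82, 3.08 and 0.967 CPM (log2 fold change -2.12 ± 0.26, adjusted p = 1.74e-12). Neither gene overlapped its vehicle values.

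Foxj1 was less affected, with 21.4, 20.3 and 11.8 CPM with TGF-β. It was lower than vehicle in mice 2 and 3 and slightly higher in mouse 4, and the call (log2 fold change -0.42 ± 0.15, adjusted p = 0.0175) was lost without the mouse as a block (adjusted p = 0.18), with DESeq2 (0.109), with all treatments in 1 model (0.0723) and without mouse 2 (0.521). Of 18 other regulators 6 fell and 1 rose, beside 20.5% and 21.2% of all genes. Rfx2, an RFX factor of ciliogenesis, fell to 14.6 from 41.5 CPM (log2 fold change -1.86 ± 0.14, adjusted p = 3.97e-25 by edgeR). Its values overlapped, with 16.4 CPM in the vehicle library of mouse 1 and 20.1 CPM in the TGF-β library of mouse 4. Deup1 fell by 2.09 on the log2 scale, and Cdc20b fell to 0.0270 from 0.985 CPM.

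Among the dynein heavy chains, 4 of 14 tested rose (28.6%) and Dnah8 fell (7.14%), beside 21.2% and 20.5% of all genes. Dnah11, an outer arm chain, had 1.09, 0, 0.886 and 0.403 CPM with vehicle and 3.13, 3.73 and 1.93 CPM with TGF-β. The groups did not overlap (log2 fold change 2.72 ± 0.55, adjusted p = 1.06e-05). Dnah5, another outer arm chain, rose with overlapping values (1.39 ± 0.44, adjusted p = 0.00592), and so did the inner arm chains Dnah7b (1.40 ± 0.42, adjusted p = 0.00368) and Dnah6 (1.04 ± 0.38, adjusted p = 0.0184), whose values did not overlap. Each was higher in 3 of 3 mice. Of the 9 alternative settings, 2 lost the call of Dnah5 (no block, without mouse 2), 3 that of Dnah6 (DESeq2, 1 model for all treatments, without mouse 2) and 1 that of Dnah7b (without mouse 3). Dnah8 had 2 reads in the 3 TGF-β libraries and 43 in the 4 vehicle libraries, a 14.2-fold lower rate (exact 95% counting interval 3.69 to 120.7), and its call (adjusted p = 0.0219 by edgeR) was lost with DESeq2 and without mouse 2 or mouse 3.

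Among the Cfap genes, 4 of 31 tested rose (12.9%) and 2 fell (6.45%), both under the 21.2% and 20.5% of all genes. Cfap44, a tether of the inner dynein arms, had 3.41, 2.64, 3.10 and 1.05 CPM with vehicle and 6.80, 4.94 and 6.04 CPM with TGF-β. All 3 TGF-β libraries lay above the vehicle libraries (log2 fold change 1.29 ± 0.31, adjusted p = 0.000186). Cfap69, a protein of the central apparatus, rose to 5.18 from 2.40 CPM (1.03 ± 0.32, adjusted p = 0.00452, lost without mouse 4). The other rises, outside the naming rule and added after their values were seen, were Cfap53 (1.58 ± 0.50) and Cfap100 (1.33 ± 0.55). Cfap298, which is needed for the assembly of outer dynein arms, fell to 47.6 ± 6.82 CPM (SD, n = 3) from 72.8 ± 5.94 CPM (n = 4), and Cfap36 fell to 47.1 from 54.6 CPM, a call lost without mouse 2. The assembly factor Dnaaf5 fell to 40.8 ± 2.69 CPM (n = 3) from 61.8 ± 9.30 CPM (n = 4).

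No radial spoke gene was called: 0 of 7 tested Rsph genes by edgeR, with 2 at an unadjusted p under 0.05. Rsph1, a spoke head protein, had 5.21, 3.89 and 3.02 CPM with TGF-β and 3.87 to 6.41 CPM with vehicle. Of the tektins, Tekt5 fell to 1.86, 1.94 and 3.14 CPM from 7.33 to 8.41 CPM (log2 fold change -1.91 ± 0.27, adjusted p = 4.2e-10). Tekt1 had 1.17, 0.891 and 1.93 CPM with TGF-β and 0.323 to 1.28 CPM with vehicle and was not called.

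These epithelial TGF-β libraries held more transcripts of the fibroblast reference genes. With TGF-β in the fibroblast fraction, 9 of 14 tested genes of that list were also called higher and 2 lower. From which cells these transcripts came in the epithelial fraction was not tested. The 15 fibroblast reference genes summed to 13087 to 14844 CPM, against 1076 to 1846 CPM with vehicle, and the 15 epithelial reference genes to 6764 to 7311 CPM against 10280 to 11958 CPM. The epithelial list was not uniform, with 11 of 15 called lower and 2 higher. Epcam, the sort marker and 1 of the 15, was at 384.1, 410.5 and 408.1 CPM against 210.1 to 221.9 CPM with vehicle. Markers of other epithelial types fell beside the early regulators: 9 of 10 club, 10 of 10 AT2, 7 of 7 tested basal, 4 of 8 goblet and 5 of 10 AT1 cell markers were called lower, and 2 of the AT1 markers higher. Of the members that rose, Cfap69, Dnah7b and Cfap100 were also called higher in fibroblast than in epithelial vehicle libraries. Dnah6, Dnah11, Cfap53 and Cfap44 had higher means in the fibroblast vehicle libraries without a call, Dnah6 at 3.32 against 1.78 CPM. In the fibroblast TGF-β libraries Cfap69 was at 3.43 to 5.20 CPM and Dnah7b at 0.893 to 1.65 CPM. Dnah11, Dnah5 and Cfap44 were at 0.244 CPM or less in every fibroblast TGF-β library. The part of fibroblast transcripts or of other epithelial types in any of these changes was not tested.

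Against EC, TGF-β gave 7 higher members (11.1%) and 6 lower (9.52%) of 63 tested, beside 16.1% and 16.8% of all genes. Against IPFc it gave 12 higher (19.0%) and 7 lower (11.1%) of 63, beside 16.2% and 20.7%. Mcidas, Ccno, Tekt5, Cfap298, Dnaaf5 and Dnah8 were lower and Cfap44, Dnah11, Dnah7b, Cfap69, Dnah5 and Dnah6 were higher against each of vehicle, EC and IPFc, with the same TGF-β libraries in all 3. Foxj1 was higher with TGF-β than with IPFc (log2 fold change 0.51 ± 0.17, adjusted p = 0.0214), a call lost in 4 of 9 alternative settings.

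**Figure D3:**
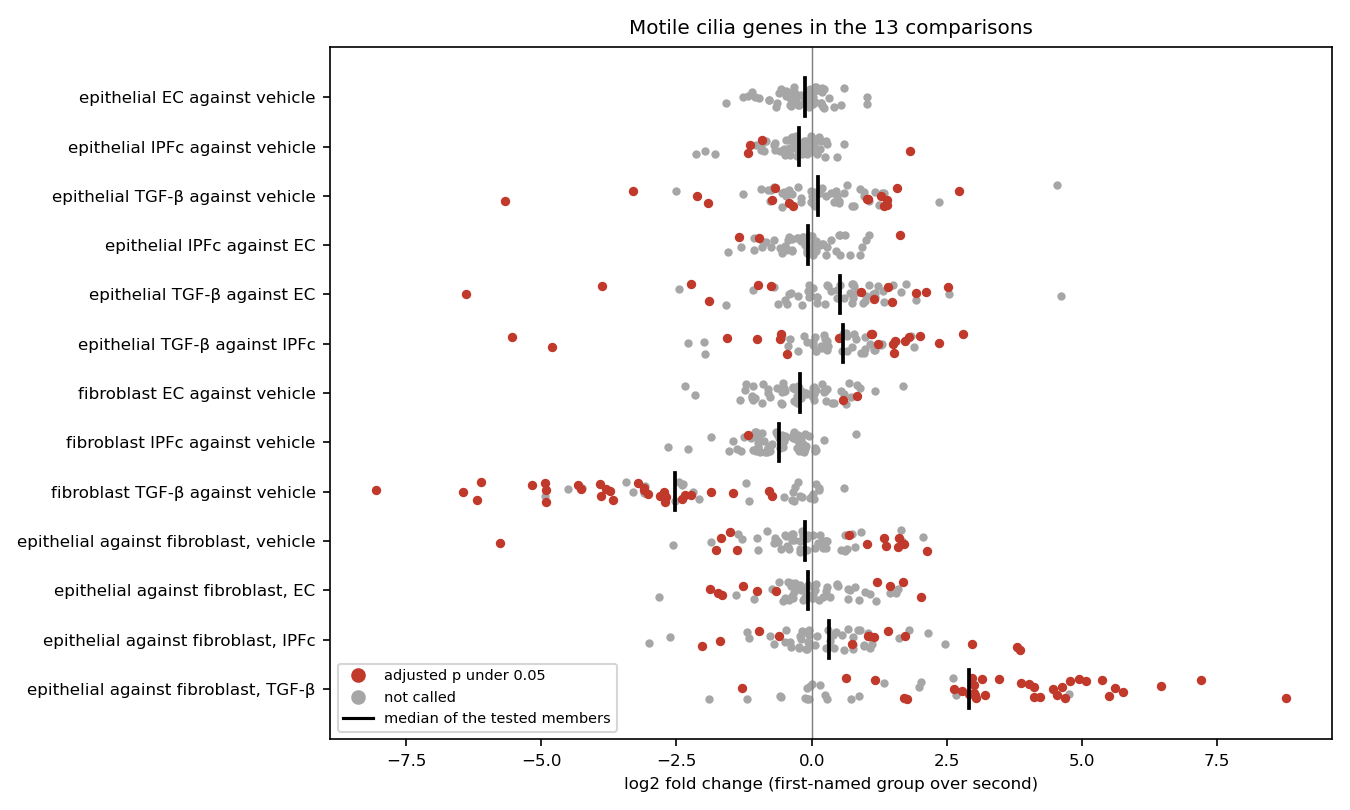
Log2 fold changes of every tested member in the 13 comparisons, in red where the adjusted p was under 0.05, with the median as a black line. The members sit around 0 in most comparisons, and are shifted in the fibroblast TGF-β comparison (median -2.53) and between the fractions under TGF-β (median 2.91).

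The fibroblast fraction also held transcripts of motile cilia. Foxj1 was at 12.7, 12.7 and 11.9 CPM in the fibroblast vehicle libraries of mice 1, 3 and 4, against 26.1, 24.0 and 11.3 CPM in their epithelial partners. It was lower in the fibroblast library in mice 1 and 3 and not in mouse 4 (epithelial over fibroblast log2 fold change 0.68 ± 0.25, adjusted p = 0.0155, not called without mouse 1 or without mouse 3). Cfap52, a protein inside the microtubule doublets, was at 4.64, 3.40 and 4.55 CPM in the fibroblast libraries and at 4.35 to 5.77 CPM in the epithelial ones.

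Over the members tested with vehicle, 8 of 65 were called higher in the epithelial fraction (12.3%) and 5 lower (7.69%), beside 21.8% and 24.3% of all genes, and the median log2 fold change was -0.13. The early regulators leaned to the epithelial side: Ccno was at 8.95 against 2.70 CPM (log2 fold change 1.70 ± 0.34, adjusted p = 4.98e-06), and Mcidas at 2.20 against 0.592 CPM (adjusted p = 0.0262, lost with DESeq2 and without mouse 1 or mouse 3). So did Tekt5 (2.13 ± 0.37, adjusted p = 9.77e-08), Cfap298 (1.62 ± 0.22) and Dnaaf5 (1.37 ± 0.23). On the fibroblast side were Cfap410, a protein of the ciliary base (-1.38 ± 0.25, adjusted p = 4.41e-07), Cfap69 (-1.68 ± 0.37) and Dnah7b (-1.51 ± 0.49).

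With EC, 4 of 63 tested members were higher in the epithelial fraction (6.35%) and 6 lower (9.52%), beside 13% and 17.2% of all genes. With IPFc, 9 of 61 were higher (14.8%) and 4 lower (6.56%), beside 25.6% and 27.8%. Foxj1 with IPFc was at 7.26, 7.34, 8.05 and 6.43 CPM in the fibroblast libraries, below the epithelial library in each of 4 mice (0.75 ± 0.23, adjusted p = 0.0161, lost without mouse 1 and without mouse 2).

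Other epithelial markers were read in the same cultures. The 15 epithelial reference genes in a fibroblast library summed to 13.5% to 27.3% of their level in its epithelial partner with vehicle, 35.7% to 49.9% with EC and 9.86% to 29.5% with IPFc. Foxj1 stood at 48.5%, 52.9% and 105.0% with vehicle (mice 1, 3 and 4) and was above the epithelial reference in 3 of 3 cultures, as in 4 of 4 with IPFc and 2 of 4 with EC. The 28 Cfap members outside the broadly expressed group stood at 100.4% to 159.2%, above the reference in 3 of 3. The 16 Dnah members stood at 89.4% to 153.8%. Markers of other epithelial types also stood above the reference with vehicle: those of AT2 cells, the surfactant-producing cells of the alveolus, at 33.3% to 59.0%, those of AT1 cells, the flat cells of gas exchange, at 35.1% to 50.1%, and those of club cells, secretory cells of the airway, at 20.7% to 36.5%. Basal and goblet cell markers did not in any of 3 cultures. From which cells of the fibroblast fraction the transcripts came was not tested.

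**Figure D4:**
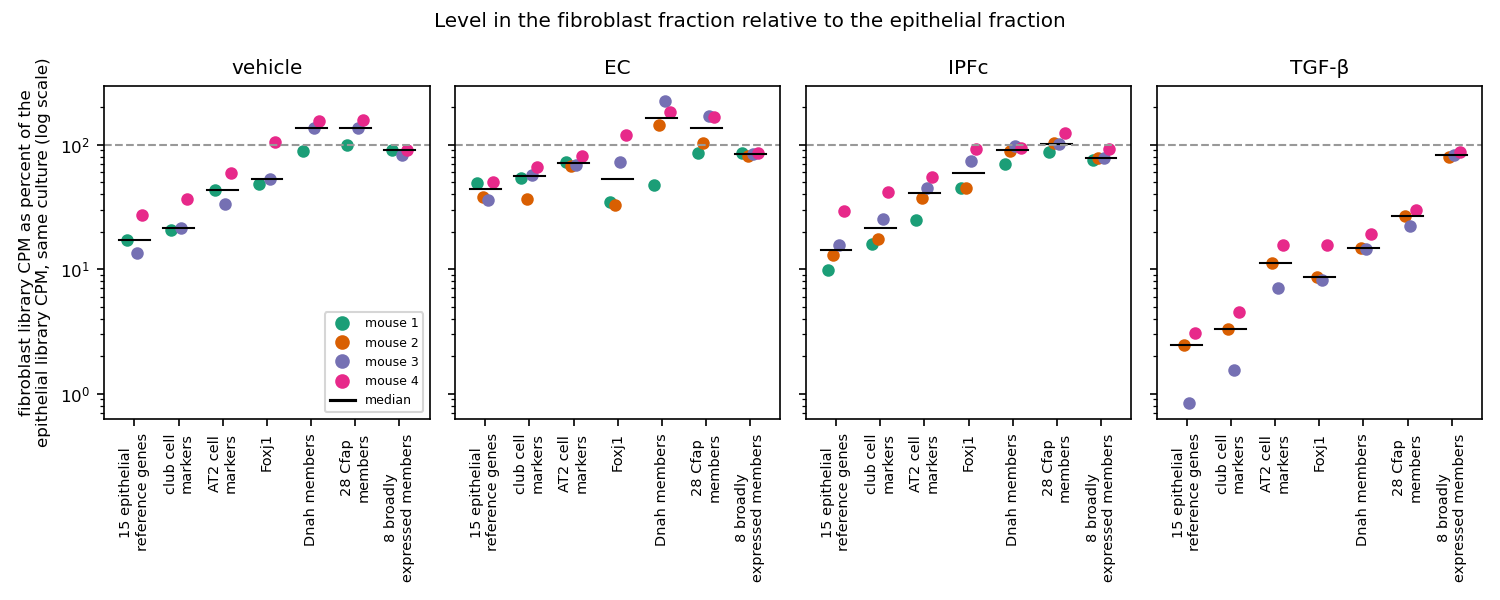
CPM in a fibroblast library as a percent of the CPM in the epithelial library of the same culture, on a log axis, by treatment and coloured by mouse, with the median as a bar. Dnah and Cfap members stand near 100% and above the epithelial reference genes in most cultures with vehicle, EC and IPFc, Foxj1 falls under that reference in mice 1 and 2 with EC, and every set plotted except the broadly expressed members is lower with TGF-β.

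In the fibroblast fraction, EC raised 2 of 65 tested members (3.08%), beside 10.1% of all genes. Both were broadly expressed. Cfap298 had 22.6, 20.9 and 27.9 CPM with vehicle (mice 1, 3 and 4) and 54.4, 25.6, 30.6 and 37.5 CPM with EC (mice 1 to 4), and the groups overlapped (log2 fold change 0.83 ± 0.20, adjusted p = 0.00106). Without mouse 1, whose EC library stands apart, the difference was 0.56 (adjusted p = 0.058). Dnaaf5 was called at 0.58 ± 0.20 (adjusted p = 0.0488). Its EC library of mouse 1 was at 14.7 CPM against 43.8 to 50.7 CPM in the others, and 7 of 9 alternatives lost the call. Foxj1 stayed at 10.8 to 14.8 CPM (0.05 ± 0.24, adjusted p = 0.945). The epithelial reference genes were also higher in these libraries, at 3253 to 5884 CPM against 1611 to 2887 CPM, and their part in both calls was not tested.

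IPFc lowered 1 of 64 tested members in the fibroblast fraction (1.56%), beside 1.27% of all genes. This was Cfap52, at 1.91, 4.50, 1.91 and 1.55 CPM against 3.40 to 4.64 CPM (log2 fold change -1.18 ± 0.34, adjusted p = 0.0402), and 6 of 9 alternatives lost the call. Foxj1 did not overlap its vehicle values and was at -0.74 ± 0.23 without passing the threshold (adjusted p = 0.065). The tested members leaned low, with 59 of 64 below 0 and a median log2 fold change of -0.61 beside 0.00 for all genes. The 15 epithelial reference genes had a median of -0.17, and 0 of them were called higher or lower. Markers of other epithelial types had medians of -0.68 (club cells, 3 of 10 called lower), -0.71 (AT1, 4 of 9), -0.39 (AT2, 2 of 10) and -0.68 (basal, 0 of 6), while 4 of 6 tested goblet cell markers were called higher. The part of these cell types in the members' shift was not tested.

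With TGF-β, motile cilia genes fell widely in the fibroblast fraction. Of 61 tested members 30 were called lower (49.2%), beside 12.2% of all genes called lower, and 0 were called higher. By family, 14 of 29 tested Cfap, 8 of 13 Dnah, 3 of 7 Rsph, 2 of 4 Tekt, 1 of 5 Dnaaf genes and 2 of 3 regulators fell. The median log2 fold change was -2.53, or -2.40 with the 6 tested members without a read in the TGF-β libraries set to their bounds. The remaining 9 members did not pass the minimum count of this comparison.

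Foxj1 fell to 1.62, 1.85, 1.65 and 1.86 CPM from 12.7, 12.7 and 11.9 CPM (log2 fold change -2.72 ± 0.29, adjusted p = 2.16e-19). The 4 values lie close together and all below vehicle. Rsph1 had 2.44, 2.24 and 2.56 CPM with vehicle and no read in any of 4 TGF-β libraries, where 0 reads allow up to 0.0501 CPM over the group (3 reads), so it was at least 48.2-fold lower. Tekt1 was at least 16.3-fold lower and Mcidas at least 11.8-fold lower by the same limit. DESeq2 did not call Rsph1 (adjusted p = 0.207), Tekt1 (0.379) or Mcidas (0.0741), and the edgeR call of Mcidas was also lost without mouse 3 or mouse 4.

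Cfap52 fell to 0, 0.275, 0.123 and 0 CPM (log2 fold change -6.19 ± 0.72, adjusted p = 1.94e-16) and Cfap45, another protein inside the doublets, to 0.244, 0.962, 0.919 and 0.480 CPM from 4.42 to 5.11 CPM (-3.02 ± 0.45). Cfap65 fell by 4.93 ± 0.74 and Cfap44 by 4.32 ± 0.67 on the log2 scale. Of the dynein chains, Dnah11 had 2 reads in the 4 TGF-β libraries and 48 in the 3 vehicle libraries, a 34.8-fold lower rate (exact 95% counting interval 9.13 to 295.9), a call lost without mouse 3. Dnah6 fell to 0.488 from 3.32 CPM (-2.39 ± 0.51, adjusted p = 3.63e-05).

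The broadly expressed members are given apart. Cfap298 fell to 12.4 from 23.8 CPM (adjusted p = 0.000532 by edgeR, lost without mouse 4), and the other 7 of these 8 were not called. Cfap20, for one, was at 41.0 to 50.9 CPM with vehicle and 34.1 to 40.5 CPM with TGF-β. Because this group was chosen on these libraries, their levels there are a description. Ccno was at 1.65 to 4.41 CPM with vehicle and 1.72 to 3.30 CPM with TGF-β and was not called. Tekt2 was at 0.851 to 1.09 CPM and 0.975 to 2.10 CPM and was not called.

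The other genes of the pathway, from lists outside the member rule, are given by their counts. Of 63 tested other axoneme and motile cilia genes 35 fell and 0 rose with TGF-β in the fibroblast fraction, among them Tppp3, a microtubule protein of ciliated cells, to 3.82 from 16.3 CPM, and Ccdc40, which sets the spacing of the dynein arms, to 0.623 from 4.90 CPM. Of 15 tested multiciliogenesis regulators 4 fell. Of 46 genes of intraflagellar transport and the primary cilium, which fibroblasts also carry, 1 rose and 4 fell. In the same comparison 12.2% of all genes were called lower.

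Epithelial transcripts in general fell in the same libraries. The 15 epithelial reference genes summed to 61.0 to 208.1 CPM with TGF-β against 1611 to 2887 CPM with vehicle, and the club cell markers to 16.0 to 42.7 CPM against 482.2 to 836.9 CPM. The fibroblast reference genes rose to 35984 to 40512 CPM from 16740 to 20014 CPM. Median log2 fold changes were -4.09 for the epithelial reference genes (15 of 15 called lower) and -4.89 for club cell markers (8 of 10). They were -5.05 for AT2 (10 of 10) and -4.09 for AT1 cell markers (7 of 9). For basal and goblet cell markers they were -2.31 (5 of 7) and -4.75 (3 of 5). The members had a median of -2.53 (30 of 61). Whether motile cilia transcripts fell more or less than other epithelial transcripts was not tested.

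Between the fractions under TGF-β, 34 of 57 tested members were higher in the epithelial fraction (59.6%), beside 24.6% of all genes, and 1 was lower (1.75%), beside 21.4%. The median log2 fold change was 2.91. Foxj1 was at 21.4, 20.3 and 11.8 CPM in the epithelial libraries and at 1.85, 1.65 and 1.86 CPM in the fibroblast libraries of the same cultures (3.20 ± 0.28, adjusted p = 4.78e-11). As a percent of the epithelial partner Foxj1 stood at 8.14% to 15.7% and the epithelial reference at 0.834% to 3.08%. AT2 cell markers stood at 7.02% to 15.8%, AT1 at 22.5% to 26.4% and basal cell markers at 4.26% to 31.0%. Club cell markers stood at 1.56% to 4.56% and goblet cell markers at 0.999% to 4.96%. The 1 lower member was Cfap410 (-1.28 ± 0.19, adjusted p = 1.15e-06).

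An interaction term, the epithelial minus the fibroblast response, tested whether the change with TGF-β differed between the fractions. Of 65 tested members 32 differed (49.2%), beside 26.2% of all genes, 30 of them with the higher response in the epithelial fraction. The median over the members was 2.55, against a shift of 0.26 over all genes. Many other genes also had the higher response in the epithelial fraction. They were 15 of 15 epithelial reference genes (median 3.37), 8 of 10 AT2 (3.03), 9 of 10 AT1 (3.45) and 7 of 10 club cell markers (3.34). So did 4 of 7 tested goblet cell markers (2.14) and 13 of 14 tested fibroblast reference genes (2.46). Of 7 tested basal cell markers 1 was higher and 3 were lower (median -1.15). Whether the members differed from any of these lists was not tested. Foxj1 differed by 2.38 ± 0.29 (adjusted p = 8.87e-08), Rsph1 by 7.63 ± 1.03, Cfap44 by 5.69 ± 0.71 and Dnah11 by 7.11 ± 1.20; the fitted sizes for Rsph1 and Dnah11 rest on 0 and 2 reads in the fibroblast TGF-β libraries. On the other side were Ccno (-2.03 ± 0.49, adjusted p = 0.00171) and Dnaaf5 (-0.73 ± 0.23, adjusted p = 0.0162). Cfap298 fell in both fractions, and its responses were not called different (0.12 ± 0.21, adjusted p = 0.743). Mcidas was called lower in both fractions, with a fitted difference of 0.47 ± 0.61 (adjusted p = 0.634) that rests on 0 fibroblast and 2 epithelial reads with TGF-β and depends on the prior count.

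For EC, 0 of 66 tested members differed between the fractions by edgeR, with 1 at an unadjusted p under 0.05, beside 5.06% of all genes. For IPFc, 0 of 64 differed, with 3 at an unadjusted p under 0.05, beside 0.414% of all genes. Foxj1 differed by 0.03 ± 0.23 for EC and by -0.14 ± 0.23 for IPFc.

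**Figure D5:**
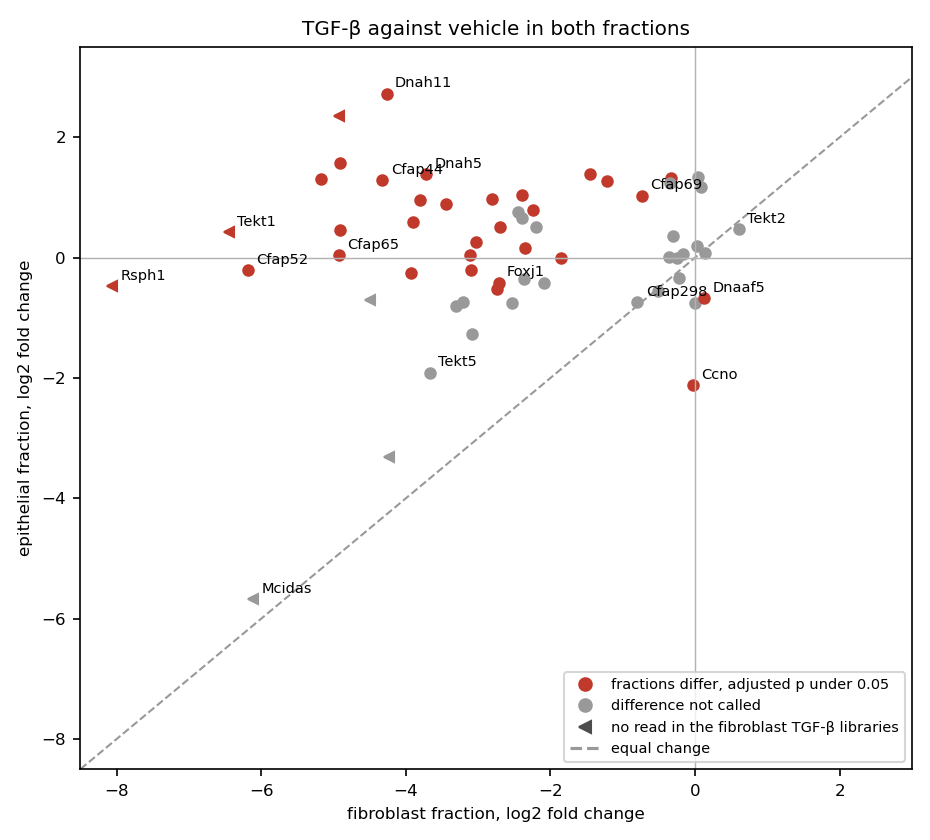
Log2 fold change with TGF-β against vehicle of the 59 members tested in both fractions, fibroblast fraction across and epithelial fraction up, in red for the 32 whose responses were called different. Triangles mark the 6 members with no read in the fibroblast TGF-β libraries, whose fitted sizes depend on the prior count. Of the 59 points most lie above the line of equal change, and Mcidas lies near it.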

How the data were processed

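Mouse Epcam+ cells and CCL206 fibroblasts were co-cultured, separated and sequenced as bulk RNA, and 30 libraries were analysed. These 30 are all the samples of the series, which holds no library of fibroblast vehicle from mouse 2 or of epithelial TGF-β from mouse 1. The paper states that 1 fibroblast control sample was left out because its RNA was of low quality. Per the labels the authors trimmed adapters (Trimmomatic 0.30), aligned reads to mouse (build given as GRCm39 per the labels and as an earlier build in the methods) and deposited whole-number counts of reads per Ensembl gene with no normalization. The library kit marks strand, but the setting of the counting is not given in the sources used here. The submitters' processing notes also name DESeq2 1.34.0.

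From the deposited counts, comparisons were fitted with edgeR 4.0.16 in R 4.3.3: TMM normalization, the two-sided quasi-likelihood test, the mouse as a block, a minimum mean raw count of 1 over the libraries compared, and Benjamini-Hochberg adjustment over all tested genes. The script was tested on simulated data. The biological coefficient of variation was 10.8% to 16.9% in the epithelial comparisons, 15.4% to 18.0% in the fibroblast ones and 15.7% to 27.6% between the fractions. In the fibroblast comparisons a gene's own scatter did not enter the fit. It had little weight for epithelial TGF-β against vehicle (146.9 prior degrees of freedom) and between the fractions with vehicle (454.3). The adjusted p-values of these fits may be too small. CPM use the library total. Limits for 0 reads take 3 reads, and intervals and limits cover counting error only, since no molecular identifiers are described.

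Same-numbered libraries come from the same mouse. The deviations from the group means of 9719 genes correlated with a median r of 0.42 (0.01 to 0.76) within a mouse in the epithelial fraction. Between mice the median r was -0.12. In the fibroblast fraction the medians were 0.44 (-0.31 to 0.77) within a mouse and -0.08 between mice. Deviations cancel out within a group, so the value between mice follows in part from that within a mouse.

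Members and gene lists were chosen with earlier results of these data known. Named members were the regulators and Tekt1, the 4 highest of each family in epithelial vehicle libraries, up to 5 called members per direction and treatment comparison, by adjusted p, and members at 5 CPM or more in fibroblast vehicle libraries. Of the other lists, the 4 tested genes with the smallest p were eligible. Alternatives were DESeq2 size factors, DESeq2 1.42.0, no filter, no block, all treatments in 1 model, and each mouse left out. Coordinates and promoters are those of RefSeq GRCm38.p6, and 14 members without a promoter entry were not searched.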

Additional observations from a re-analysis of the deposited data

Results flagged for a closer look

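Within groups of 4 libraries, 6 of 135 tested sets of values of the named members had 1 library far from the other 3, where chance gives about 1 in 20. In the epithelial EC library of mouse 4, Cfap36 was at 77.7 CPM against 44.1 to 47.8 CPM in the others, Dnaaf3 at 1.73 CPM against 4.15 to 4.47 CPM, and Rsph3b at 7.52 CPM against 8.87 to 9.00 CPM. Rsph1 was at 4.69 CPM in the fibroblast EC library of mouse 1 against 2.74 to 2.93 CPM. In the fibroblast IPFc libraries, Cfap52 was at 4.50 CPM in mouse 2 against 1.55 to 1.91 CPM, and Dnah6 at 1.39 CPM in mouse 4 against 2.56 to 2.77 CPM.

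The response to TGF-β differed between the fractions for 17 of the 31 named members by the interaction test of edgeR, beside 26.2% of all genes. Some of the 31 were named because of calls with TGF-β in these same libraries, so their count cannot be read against that share. Values are the epithelial minus the fibroblast log2 fold change. Among the dynein heavy chains the difference was 7.11 for Dnah11, 5.08 for Dnah5, 4.85 for Dnah9, 3.49 for Dnah6 and 2.92 for Dnah7b. Among the Cfap genes it was 6.04 for Cfap52, 5.69 for Cfap44, 5.01 for Cfap65, 3.32 for Cfap45 and 1.82 for Cfap69. It was 7.63 for Rsph1, 3.70 for Rsph9, 6.93 for Tekt1, 2.55 for Dnaaf3 and 2.38 for Foxj1. It was -2.03 for Ccno and -0.73 for Dnaaf5. Rsph1 and Tekt1 had no read and Dnah11 had 2 reads in the fibroblast TGF-β libraries, so their fitted sizes depend on the prior count.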

How the results depend on the processing

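Alternatives to the edgeR fit were compared for the number of members called. No called member changed direction under another scaling, tool, filter, block or shared model. With DESeq2 the count went from 19 to 11 for epithelial TGF-β against IPFc, from 30 to 19 for fibroblast TGF-β against vehicle, from 2 to 1 for fibroblast EC and from 1 to 0 for fibroblast IPFc. Without the mouse as a replicate block the count went from 4 to 1 for epithelial IPFc against vehicle, from 3 to 0 for epithelial IPFc against EC, from 19 to 10 for epithelial TGF-β against IPFc, from 2 to 0 for fibroblast EC and from 1 to 0 for fibroblast IPFc. With all treatments in 1 model the count went from 3 to 5 for epithelial IPFc against EC, from 13 to 23 for epithelial TGF-β against EC, from 10 to 16 and from 13 to 23 between the fractions with EC and IPFc, from 2 to 0 for fibroblast EC and from 1 to 0 for fibroblast IPFc. With no filter it went from 3 to 6 for epithelial IPFc against EC and from 2 to 1 for fibroblast EC. Leaving out each mouse in turn gave 0 to 1 called members for epithelial EC, 10 to 16 for epithelial TGF-β against vehicle (10 without mouse 2), 10 to 19 for epithelial TGF-β against IPFc (10 without mouse 3, 11 without mouse 4), 18 to 30 for fibroblast TGF-β (18 without mouse 3 and 18 without mouse 4), 1 to 2 for fibroblast EC, 0 to 1 for fibroblast IPFc, 8 to 14 between the fractions with vehicle (8 without mouse 1 and 8 without mouse 3) and 2 to 11 between the fractions with EC (2 without mouse 2 and 2 without mouse 3). The cause of these differences was not tested, apart from the fewer libraries in the fits that leave out a mouse. Most members are under 5 CPM, where few reads limit the size of the difference that can be called.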

Other observations

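The genes of intraflagellar transport and the primary cilium, the transport machinery that axoneme building shares with the sensory cilium of other cells, were read beside the members. With TGF-β in the epithelial fraction, 20 of 46 rose and 2 fell by edgeR, beside 21.2% of all genes higher and 20.5% lower. Wdr19 rose to 17.2 from 7.54 CPM (log2 fold change 1.20 ± 0.18, adjusted p = 8.01e-09), Ift122 to 30.2 from 15.9 CPM and Cep290, a transition zone protein, to 74.9 from 38.8 CPM, while Traf3ip1 fell to 40.4 from 61.3 CPM. With vehicle, 23 of 46 were lower and 1 higher in the epithelial than in the fibroblast fraction, beside 24.3% and 21.8% of all genes, with Ift122 at 15.9 against 53.1 CPM. Fibroblast reference transcripts were also higher in the epithelial TGF-β libraries, as given above, and their part in these differences was not tested. With EC and with IPFc, 0 of 46 were called in the epithelial fraction by edgeR, with 2 and 1 at an unadjusted p under 0.05.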
